A study of Mus musculus with 2 samples.

Results

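Hes1, 4 genes of the Notch pathway that acts on it (Notch1, Notch2, Rbpj and Maml2) and 3 genes of the Id family (Id1, Id2 and Id3) were followed in single hippocampal microglia of mice with fetal growth restriction (FGR) and of Control mice. The 8 genes, of 32245 gene symbols in the count matrices, were taken by symbol and were chosen because Hes1 was already known to be lower, and Id2 higher, in the FGR library. Their difference in level is therefore given as a description, with no test. Both groups were Tmem119-tdTomato+/- mice, which carry a red fluorescent reporter of the microglial gene Tmem119, taken at 3 weeks of age. Tmem119-positive cells were collected from the hippocampus with a cell sorter and processed with the 10x Genomics 3′ protocol, in which each captured transcript end is counted once through its unique molecular identifier (UMI). There was 1 FGR library and 1 Control library. How growth restriction was produced, how many animals were pooled and their sex are not stated in the labels, and group and library cannot be told apart.

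Notch receptors are membrane proteins that are cut when a ligand on a neighbouring cell binds them. The freed intracellular part joins the DNA-binding protein RBPJ and a Mastermind-like co-activator in the nucleus and switches on targets such as Hes1, a basic helix-loop-helix repressor that also represses its own gene and, in macrophages, genes of inflammatory cytokines. Id proteins are helix-loop-helix proteins without a DNA-binding region, which hold E proteins away from DNA, and their genes are textbook targets of bone morphogenetic protein (BMP) and Smad signalling.

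After the filters of at least 1500 UMIs, at least 200 genes and at most 10% mitochondrial UMIs, 8618 FGR cells and 10687 Control cells remained, with medians of 4919.5 UMIs in FGR cells and 4657 UMIs in Control cells. All 12 microglial markers were present, with a summed level of 42413 counts scaled to 1000000 UMIs (CPM) in FGR cells and 42741 CPM in Control cells. Clusters called microglia-like from these markers held 96.9% of the FGR cells and 92.3% of the Control cells. The sum over 8 endothelial markers was 89.7 CPM in FGR cells and 49.8 CPM in Control cells, and that over 4 globin genes was 34.0 CPM in FGR cells and 121.6 CPM in Control cells. The 9 mural or fibroblast markers summed to 58.9 CPM in FGR cells and 24.1 CPM in Control cells. The 10 astrocyte or neural progenitor markers summed to 326.5 CPM in FGR cells and 196.2 CPM in Control cells; in microglia-like clusters most of this was Slc1a3, at 298.3 CPM in FGR cells and 162.3 CPM in Control cells, with Gfap and Aqp4 below 1 CPM. The libraries shared 31 cell barcodes (0.360% of FGR cells and 0.290% of Control cells). Immediate early genes, which are switched on within minutes of a stimulus such as cell dissociation, also differed in summed level between the libraries, and their values are given beside Hes1 and Id2 below.

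Hes1 and Id2 differed in opposite directions. In FGR cells Id2 was the most abundant of the 8 genes and Hes1 the fourth, while in Control cells Hes1 was the most abundant and Id2 came next. The 4 other Notch pathway genes had levels within 1.2-fold between the libraries, and Id1 and Id3 were rare transcripts. In FGR cells the UMIs of Id1 and Id3 came largely from a few cells, and in Control cells less so. Over all genes, 8328 reached 10 CPM in at least 1 library and were counted as measured. A gene was called higher or lower when the whole 95% interval of its ratio lay beyond 1.5-fold; 2.17% of measured genes were called higher, 1.06% lower and 3.23% in either direction. Of the 8 genes 7 were measured, 1 (Id2) was called higher and 1 (Hes1) lower, and nothing is read from these shares because the 2 genes were chosen on this contrast. The median log2 ratio of FGR over Control over all measured genes was -0.07.

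Hes1 (ENSMUSG00000022528, chromosome 16, 30064384 to 30067796, plus strand, GRCm38) was counted 3013 times in FGR cells, a level of 66.3 CPM (95% interval 64.0 to 68.7), against 12722 times in Control cells, a level of 237.5 CPM (233.4 to 241.7). The level in FGR cells was 0.279 of that in Control cells (0.268 to 0.290), a log2 ratio of -1.84. It ranked 6 from the lowest of all measured genes. These intervals, and those below, cover counting error only and say nothing of the variation between animals or libraries. Intervals of levels and ratios also leave out variation between cells beyond counting error.

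Id2 (ENSMUSG00000020644, chromosome 12, 25093799 to 25097140, minus strand) was counted 21131 times in FGR cells, a level of 465.0 CPM (458.8 to 471.3), against 5532 times in Control cells, a level of 103.3 CPM (100.6 to 106.0). The ratio of the levels was 4.50 (4.37 to 4.64), a log2 ratio of 2.17, and it ranked 25 from the highest of all measured genes. Id2 was the most counted Id gene in either library. Without cells that held 2 or more UMIs of markers of other cell types, the Hes1 ratio was 0.319 (0.297 to 0.342) and the Id2 ratio 4.64 (4.42 to 4.88). This filter kept 3126 of 8618 FGR cells and 4596 of 10687 Control cells. Its markers include genes counted in the microglia-like clusters themselves, such as Slc1a3, so it also removed microglia-like cells.

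**Figure D1:**
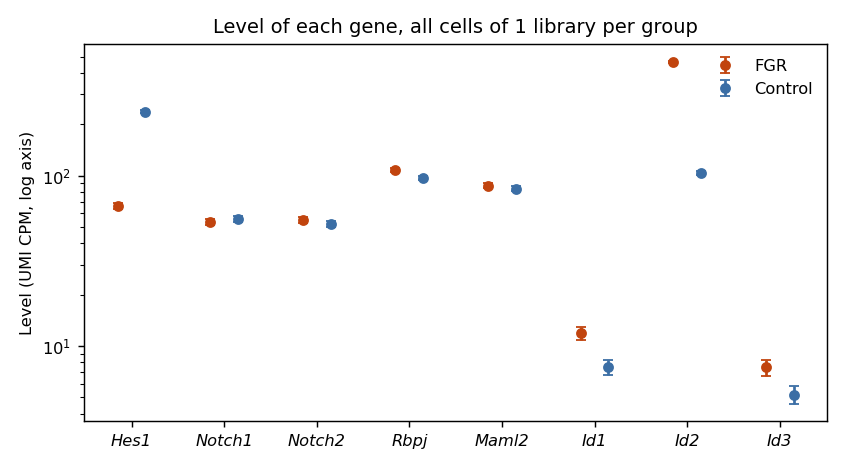
Level of each of the 8 genes in all cells of the FGR library (left point of each pair) and the Control library (right point), in UMI CPM on a log axis, with exact 95% Poisson intervals for counting error. Hes1 lies at 66.3 CPM in FGR cells and 237.5 CPM in Control cells and Id2 at 465.0 CPM in FGR cells and 103.3 CPM in Control cells, while Notch1, Notch2, Rbpj and Maml2 lie close together between the libraries.

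Promoter sequence of Id2 and of Nrarp, the Notch target that was lower in FGR cells as Hes1 was, was taken from RefSeq (GRCm38.p6). It shows what these genes carry just upstream of their RefSeq start. Of the 8 genes 6 were in the promoter table used, and Hes1 and Id1 were not. For Id2 the 89 bases from -250 to -162 that lie outside annotated exons are shown (chr12:25096254-25096342, minus strand), and for Nrarp the 250 bases before its start (chr2:25180508-25180757, plus strand). The Id2 bases lie inside the gene span given above, which is that of GENCODE M21, so they are upstream of the RefSeq start only. Capitals mark matches, on either strand, to the motifs searched, which were the RBPJ core TGGGAA, the E-box CANNTG bound by helix-loop-helix proteins, the N-box CACNAG bound by Hes proteins and the core GGCGCC of BMP-responsive elements. No capitals of different motifs overlap here.
Id2: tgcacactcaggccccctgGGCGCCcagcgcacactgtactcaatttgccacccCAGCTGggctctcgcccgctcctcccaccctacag
Nrarp: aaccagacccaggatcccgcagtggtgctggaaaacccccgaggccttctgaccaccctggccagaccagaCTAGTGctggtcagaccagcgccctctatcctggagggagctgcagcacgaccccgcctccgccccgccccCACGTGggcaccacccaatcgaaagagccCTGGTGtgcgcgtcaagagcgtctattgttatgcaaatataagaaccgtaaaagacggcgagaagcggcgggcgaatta
The Id2 stretch holds 1 GGCGCC, found in 2.73% of 32851 promoters over the same bases, and 1 E-box (CAGCTG), found in 33.0%. Neither TGGGAA (8.44% of promoters) nor CACNAG (14.7%) occurs in it. The Nrarp stretch holds 1 E-box (CACGTG; 66.2% of promoters hold an E-box in this window) and 2 N-boxes (CTAGTG and CTGGTG, both on the other strand; 36.7%), and neither TGGGAA (21.6%) nor GGCGCC (9.59%). Matches of this kind describe letters in a window, not binding.

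Among the receptors, Notch1 (ENSMUSG00000026923, chromosome 2, 26457903 to 26516663, minus strand) stood at 53.2 CPM in FGR cells and 55.7 CPM in Control cells, a ratio of 0.954 (0.904 to 1.01). Notch2 (ENSMUSG00000027878, chromosome 3, 98013527 to 98150361, plus strand) stood at 54.8 CPM in FGR cells and 52.0 CPM in Control cells, a ratio of 1.05 (0.998 to 1.11). Both intervals include 1. Some alternatives moved an interval just off 1, since the Notch2 ratio was 1.11 (1.05 to 1.17) with size factors, 1.06 (1.002 to 1.12) in cells of at least 3000 UMIs and 1.07 (1.01 to 1.14) in cells matched on immediate early genes other than Dusp1, and the Notch1 ratio was 0.936 (0.879 to 0.996) in cells matched on all of them. In either library these were the neighbours in the order of the 8 levels whose intervals overlapped. A UMI counts a transcript end, so levels of different genes are set side by side here without a length correction. Whether counting used strand is not stated, and the opposite-strand transcript 0610009E02Rik, which overlaps Notch1, had 5.96 CPM in FGR cells and 5.96 CPM in Control cells. Of the other receptors, Notch4, mainly known from endothelium, had 13.4 CPM in FGR cells and 9.76 CPM in Control cells (ratio 1.38, 1.22 to 1.55), and Notch3, known from mural cells, had 0.220 CPM in FGR cells and 0.411 CPM in Control cells.

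In the nuclear complex, Rbpj (ENSMUSG00000039191, chromosome 5, 53466152 to 53657362, plus strand), the DNA-binding protein that all Notch receptors use, stood at 108.3 CPM in FGR cells and 97.4 CPM in Control cells. Its ratio of 1.11 (1.07 to 1.16) lay above 1 beyond counting error and far inside 1.5-fold. Maml2 (ENSMUSG00000031925, chromosome 9, 13297957 to 13709388, plus strand), a Mastermind-like co-activator, stood at 87.3 CPM in FGR cells and 84.1 CPM in Control cells, a ratio of 1.04 (0.995 to 1.08). Of its relatives, Maml1 had a ratio of 0.861 (0.799 to 0.928), below 1 beyond counting error, and Maml3 of 1.004 (0.971 to 1.04). Transcript levels of Notch1, Notch2, Rbpj and Maml2 thus differed by far less between the libraries than that of Hes1.

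The wider pathway was read from lists arranged by role. Of 68 listed Notch pathway genes 45 were measured, 0 were called higher, 2 (Hes1 and Nrarp) were called lower, beside 2.17% higher and 1.06% lower over all measured genes. Hes1 was chosen on this contrast, which leaves Nrarp. The median log2 ratio of the 45 genes was -0.09 against -0.07 over all measured genes. None of the 7 ligands reached 10 CPM: Jag2 had 7.68 CPM in FGR cells and 7.54 CPM in Control cells, Dll1 had 2.88 CPM in FGR cells and 3.32 CPM in Control cells, and the other 5 had at most 1.17 CPM. All 6 genes that add sugars to the receptor or cut it in the Golgi were measured and lay between ratios of 0.920 (Rfng) and 1.09 (Poglut1), with the Fringe genes Lfng at 0.936 and Mfng at 0.942. The 7 measured genes of receptor cleavage lay between 0.850 (Psen2, a presenilin of gamma-secretase) and 1.07 (Psenen, another of its subunits), with the protease gene Adam17 at 0.915. The 13 measured genes of the nuclear complex and its co-repressors lay between 0.831 (Hdac1, a histone deacetylase) and 1.11 (Rbpj), with the co-repressor Spen and the acetyltransferase Kat2b both at 0.865.

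Nrarp, a Notch target whose product binds the intracellular part of Notch and limits its signal, was the gene called lower among the 10 measured inhibitors and turnover factors. It was counted 484 times in FGR cells, a level of 10.7 CPM, against 1006 times in Control cells, a level of 18.8 CPM (ratio 0.567, 0.508 to 0.633). Dtx4, an E3 ubiquitin ligase of the Deltex family, had 79.4 CPM in FGR cells and 111.7 CPM in Control cells, a ratio of 0.711 (0.682 to 0.742) that was not beyond the threshold, and Dtx2 had a ratio of 0.801 and Numb, which promotes loss of Notch from the membrane, of 0.820.

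Among 16 Hes, Hey and partner repressors 6 were measured and Hes1 was the one called. Hes6, which antagonises Hes1, had 16.4 CPM in FGR cells and 22.6 CPM in Control cells (ratio 0.727, 0.662 to 0.797). Bhlhe41, a related repressor, had 136.5 CPM in FGR cells and 109.7 CPM in Control cells (1.24, 1.201 to 1.29), and the Groucho co-repressor Tle4 had a ratio of 0.836. The other classical Notch targets Hes5, Hey1, Hey2 and Heyl were each below 1 CPM in either library, and Hes2 and Hes3 had 0 UMIs, which with 3 counts as the limit allows up to 0.0660 CPM in FGR cells and 0.0560 CPM in Control cells. Of these classical targets Hes1 was the one above 10 CPM.

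**Figure D2:**
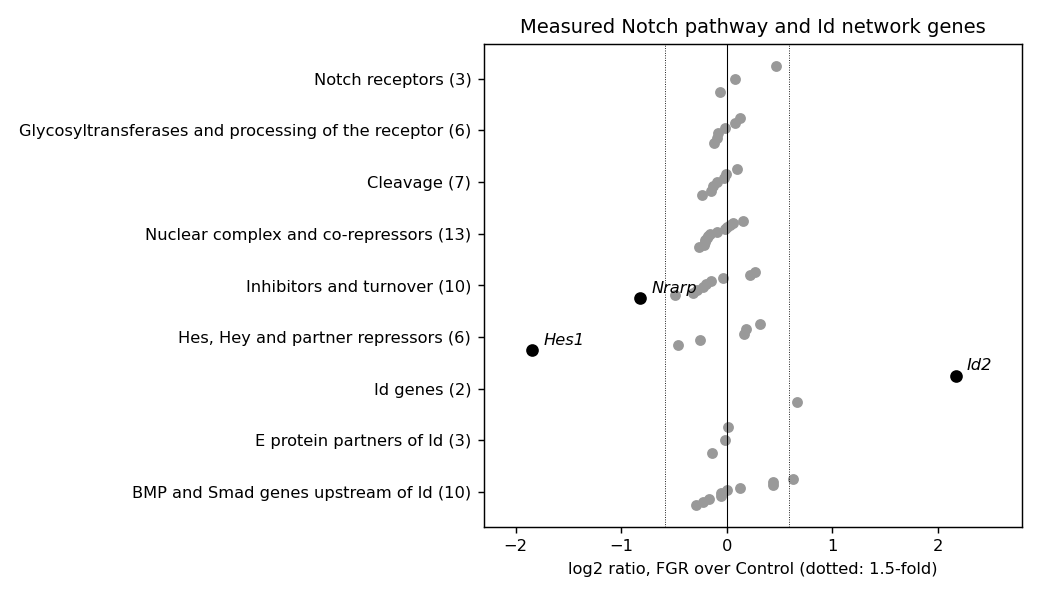
Log2 ratio of FGR over Control for the 60 measured genes of the Notch pathway and the Id network, in rows by role with the number measured in brackets. Black points are genes called beyond 1.5-fold (dotted lines), namely Hes1 at -1.84, Nrarp at -0.82 and Id2 at 2.17, and grey points are all others.

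The Id genes were set beside their partners and their upstream genes. Of 25 listed Id, E protein, BMP and Smad genes 15 were measured, 1 (Id2, chosen on this contrast) was called higher and 0 lower, beside 2.17% higher and 1.06% lower over all measured genes, with a median log2 ratio of 0.01. The E protein genes, whose products Id proteins bind, were near a ratio of 1, with Tcf4 at 428.1 CPM in FGR cells and 423.5 CPM in Control cells (ratio 1.01, 0.992 to 1.03), Tcf12 at a ratio of 0.992 and Tcf3 at 0.908. On the BMP and Smad side, Bambi, a decoy receptor, had 12.2 CPM in FGR cells and 7.90 CPM in Control cells (1.54, 1.36 to 1.75), and Smad7, an inhibitory Smad also driven by transforming growth factor beta, had 798.3 CPM in FGR cells and 588.7 CPM in Control cells (1.36, 1.34 to 1.38). The receptor gene Acvrl1 had a ratio of 1.36 (1.22 to 1.502) and the signal-carrying Smad5 of 0.816 (0.771 to 0.864), and none of these passed the threshold. These BMP and Smad values are over all cells, and whether the differences lie in microglia or in other cell types was not tested.

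Id1 (ENSMUSG00000042745, chromosome 2, 152736251 to 152737410, plus strand) was counted 539 times in FGR cells, a level of 11.9 CPM, against 401 times in Control cells, a level of 7.49 CPM (ratio 1.58, 1.39 to 1.81). Id3 (ENSMUSG00000007872, chromosome 4, 136143497 to 136145755, plus strand) was counted 339 times in FGR cells, a level of 7.46 CPM, against 276 times in Control cells, a level of 5.15 CPM (1.45, 1.23 to 1.70), and Id4 had 1.52 CPM in FGR cells and 0.990 CPM in Control cells. In many tissues these 3 genes are expressed in endothelial cells or glia.

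These counts were unevenly spread. A cluster of 41 FGR cells and 11 Control cells, led by Adgrf5, Emcn and Dcn and with all 8 endothelial markers detected, held 61.0% of the Id1 UMIs of FGR cells and 19.0% of those of Control cells. It held 75.2% of the Id3 UMIs of FGR cells and 37.0% of those of Control cells. The cluster also had 11 of the 12 microglial markers detected, and whether its barcodes mix RNA of several cell types was not tested. In a finer clustering it came apart into a group with 8 mural or fibroblast markers, led by Dcn and Col1a1 (22 FGR cells and 6 Control cells), and a group with 8 endothelial markers, led by Adgrl4 and Ptprb (19 FGR cells and 5 Control cells). Id1 lay mainly in the endothelial group, with 290 UMIs in FGR cells and 74 UMIs in Control cells there, against 39 UMIs in FGR cells and 2 UMIs in Control cells in the fibroblast group. Id3 lay in both, with 136 UMIs in FGR cells and 54 UMIs in Control cells in the fibroblast group and 119 UMIs in FGR cells and 48 UMIs in Control cells in the endothelial group. Within the undivided cluster Id1 stood at 1095 CPM in FGR cells and 765.9 CPM in Control cells, and Id3 at 848.9 CPM in FGR cells and 1028 CPM in Control cells. The same cluster held 3.09% of the Hes1 UMIs of FGR cells and 0.424% of those of Control cells, and 0.322% of the Id2 UMIs of FGR cells and 0.127% of those of Control cells.

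In the microglia-like clusters alone the order of Id1 and Id3 turned round, with Id1 at 3.67 CPM in FGR cells and 6.21 CPM in Control cells (ratio 0.591, 0.485 to 0.717) and Id3 at 1.38 CPM in FGR cells and 2.81 CPM in Control cells (0.492, 0.358 to 0.669). There the 8 endothelial markers summed to 31.3 CPM in FGR cells and 34.2 CPM in Control cells. When only the endothelial-marker cluster was left out, the ratio was 0.765 for Id1 and 0.572 for Id3. At a fixed 1500 UMIs per cell, Id1 was seen in 0.754% of FGR cells and 0.908% of Control cells, and Id3 in 0.511% of FGR cells and 0.543% of Control cells. Globin transcripts, which microglia do not make, were seen at the same depth in 1.33% of microglia-like FGR cells (median 4930 UMIs as counted) and 4.25% of microglia-like Control cells (median 4639 UMIs), but free RNA is rich in globin and sets no background for other genes. Subtracting free RNA left Id1 at 11.8 CPM in FGR cells and 7.30 CPM in Control cells and Id3 at 7.35 CPM in FGR cells and 5.03 CPM in Control cells over all cells. Stray cells of other types within the microglia-like clusters were not tested as a source of these few transcripts.

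**Figure D3:**
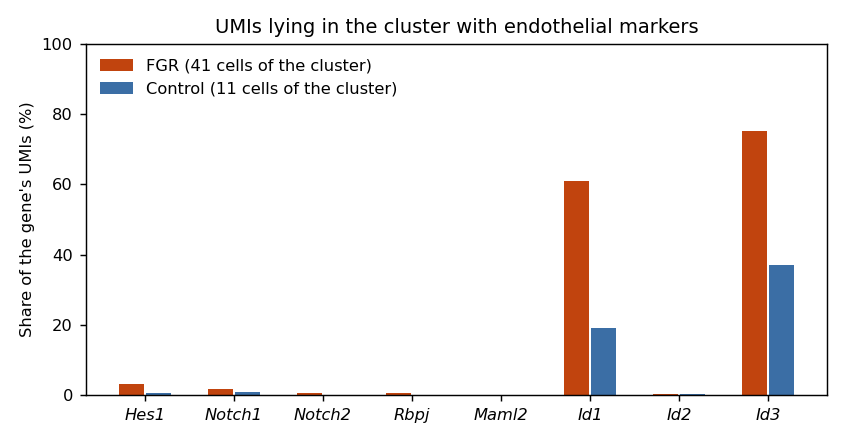
Share (%) of each gene's UMIs that lay in the cluster with endothelial markers, for FGR (left bar of each pair, 41 cells of the cluster) and Control (right bar, 11 cells). Id1 reaches 61.0% in FGR and 19.0% in Control and Id3 75.2% in FGR and 37.0% in Control, while the other 6 genes stay below 5%.

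The Hes1 and Id2 differences were spread over many cells. With each cell thinned to 1500 UMIs, at least 1 Hes1 UMI was found in 7.79% of FGR cells (exact 95% interval 7.23 to 8.37) and 21.5% of Control cells (20.7 to 22.3). At least 1 Id2 UMI was found in 33.9% of FGR cells (32.9 to 34.9) and 11.5% of Control cells (10.9 to 12.1). As counted, without thinning, Hes1 was found in 19.8% of FGR cells and 39.7% of Control cells and Id2 in 57.7% of FGR cells and 25.5% of Control cells. Subtracting free RNA left the Hes1 ratio at 0.279 (0.268 to 0.290) and the Id2 ratio at 4.49 (4.36 to 4.63).

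Cells with many transcripts of a gene followed the same order. At least 3 Hes1 UMIs were found in 0.371% of FGR cells and 3.00% of Control cells, and at least 3 Id2 UMIs in 7.67% of FGR cells and 0.730% of Control cells. The variance of Hes1 counts over cells was 1.44 times the mean in FGR cells and 1.97 times the mean in Control cells, and that of Id2 was 2.39 times the mean in FGR cells and 1.61 times in Control cells. Both genes thus varied between cells by more than random sampling of a constant level gives, which is a ratio of 1. The receptor and nuclear genes stayed near it in both libraries, between 1.03 (Notch1) and 1.09 (Maml2) in FGR cells and between 0.998 (Notch2) and 1.08 (Maml2) in Control cells.

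Hes1 and Id2 were also read together in single cells. Both were found in 2.78% of FGR cells and 2.76% of Control cells, Hes1 without Id2 in 5.001% of FGR cells and 18.8% of Control cells, and Id2 without Hes1 in 31.1% of FGR cells and 8.69% of Control cells. In the FGR library Id2 was found in 35.8% of cells with a Hes1 UMI (32.1 to 39.5) and in 33.7% of cells without one (32.7 to 34.8). In the Control library the shares were 12.8% of cells with a Hes1 UMI (11.5 to 14.3) and 11.1% of cells without one (10.4 to 11.8). In neither library was the share of cells with Id2 lower among cells with Hes1, although Hes1 and Id2 differed in opposite directions between the libraries.

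Hes1 was read in the same way against the receptors and Rbpj. In the FGR library Hes1 was found in 8.79% of cells with a Notch1 UMI and 7.70% of cells without, and in 8.96% of cells with a Notch2 UMI and 7.69% of cells without. In the Control library it was found in 20.5% of cells with a Notch1 UMI and 21.6% of cells without, and in 18.6% of cells with a Notch2 UMI and 21.8% of cells without. For Rbpj the shares were 8.69% with and 7.63% without in the FGR library, and 22.8% with and 21.3% without in the Control library. The widest gap was that for Notch2 in the Control library, with intervals of 15.9% to 21.5% for cells with a UMI and 20.9% to 22.6% for cells without, and its direction was the opposite of that in the FGR library. These differences were not tested.

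Cells of both libraries were clustered together from other genes, with the 8 genes left out, and 8 clusters held at least 50 cells of each library. The Hes1 level of FGR over Control was below 1, interval included, in all 8, with a median ratio of 0.273 and a range of 0.069 to 0.532. In the finer clustering it was so in 8 of 9 clusters, the other being a cluster led by Fosb, Klf2 and Hspa1a (2262 FGR cells and 102 Control cells), where Hes1 stood at 42.6 CPM in FGR cells and 60.5 CPM in Control cells (ratio 0.703, 0.480 to 1.07). For Id2 it was above 1 in 7 of the 8 clusters (9 of 9 in the finer clustering), with a median of 3.34 and a range of 0.274 to 4.40. Those 9 leave out a finer cluster of 108 FGR cells and 49 Control cells, just under the minimum of 50. There the Id2 ratio was 0.444 (0.160 to 1.22), the one ratio below 1 among all finer clusters. The clusters were unevenly filled, since cluster 0 held 6937 FGR cells and 364 Control cells while clusters 1 and 2 held 489 and 102 FGR cells and 4536 and 4072 Control cells, so a cluster may in part stand for a library. All values within clusters describe the same cells that were clustered.

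The highest Hes1 levels among the microglia-like clusters were in cluster 1, with 98.3 CPM in FGR cells and 337.0 CPM in Control cells. In cluster 2, led by Arl4d, Sertad1 and Tob1, Hes1 stood at 67.4 CPM in FGR cells and 126.7 CPM in Control cells, so Control cells alone differed between clusters 1 and 2 by more than 2-fold. Cluster 0, led by Ddit4, Dusp1 and histone H1 genes, had 64.4 CPM in FGR cells and 210.8 CPM in Control cells. In an unnamed cluster led by Clu, Slc1a2 and Aldoc, genes known from astrocytes, Hes1 reached 124.7 CPM in 59 FGR cells and 492.2 CPM in 340 Control cells.

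The highest Id2 level was in cluster 3, led by Lgals3, Spp1, Itgax and Csf1, genes known from activated or white-matter-associated microglia. There Id2 stood at 785.3 CPM in FGR cells and 354.5 CPM in Control cells (ratio 2.22, 2.07 to 2.37), and Hes1 at 53.2 CPM in FGR cells and 158.2 CPM in Control cells (0.336, 0.286 to 0.394). This cluster held 592 FGR cells and 545 Control cells and so was among the most evenly filled. In the interferon cluster led by Ifit3, Hes1 stood at 50.6 CPM in FGR cells and 236.2 CPM in Control cells and Id2 at 387.0 CPM in FGR cells and 111.9 CPM in Control cells. The exception for Id2 was cluster 8, an unnamed group of 109 FGR cells and 56 Control cells led by Tnr, Ncam1 and Gria2, where Id2 rested on 10 UMIs in FGR cells and 22 UMIs in Control cells (0.274, 0.116 to 0.602) and median depth was 2240 UMIs in FGR cells and 2787.5 UMIs in Control cells.

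**Figure D4:**
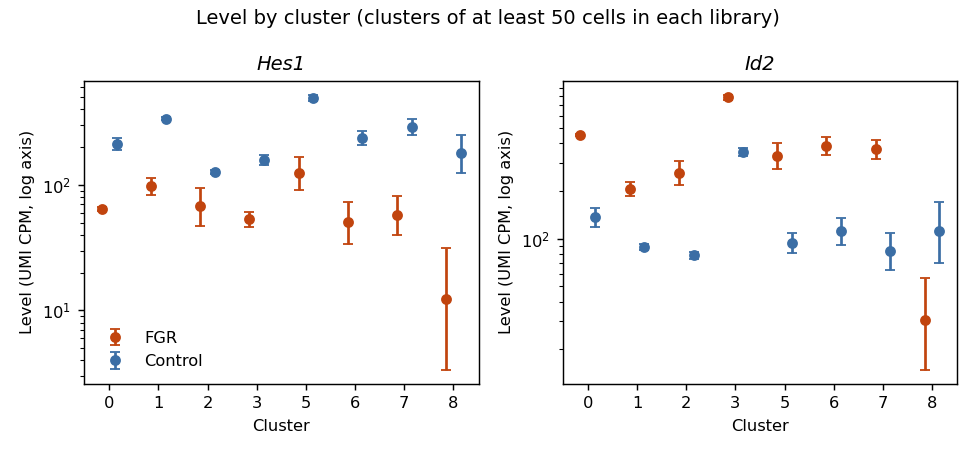
Hes1 (left panel) and Id2 (right panel) levels in UMI CPM on a log axis, in each cluster with at least 50 cells of both libraries, for FGR (left point of each pair) and Control (right point), with exact 95% Poisson intervals. Hes1 is lower in FGR in all 8 clusters and Id2 is higher in FGR in all but cluster 8.

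Immediate early genes moved with the libraries as well. Of 17 measured genes of that list 8 were called higher in FGR cells, among them Dusp1 at a ratio of 4.68, Klf4 at 2.15, Fos at 2.15 and Fosb at 2.04, and 0 were called lower, beside 2.17% higher and 1.06% lower over all measured genes. The list did not move as a whole, since Egr1 had a ratio of 0.755 and Ier2, Ier3 and Ier5 had ratios between 0.893 and 0.975. Per 1500 UMIs, a median FGR cell held 51 UMIs of the list and a median Control cell 39. Cells of both libraries were therefore split together into 4 groups by this sum.

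In the group with 0 to 28 immediate early UMIs, Hes1 stood at 64.2 CPM in FGR cells and 327.4 CPM in Control cells (ratio 0.196, 0.179 to 0.215), and in the group with 29 to 44 at 80.6 CPM in FGR cells and 281.7 CPM in Control cells (0.286, 0.265 to 0.309). With 45 to 63 it stood at 70.9 CPM in FGR cells and 162.3 CPM in Control cells (0.437, 0.402 to 0.474), and with 64 to 218 at 55.6 CPM in FGR cells and 90.3 CPM in Control cells (0.616, 0.557 to 0.680). The gap in Hes1 thus narrowed as immediate early UMIs went up, with the level lower from group to group in Control cells, while in FGR cells it stayed between 55.6 and 80.6 CPM.

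Id2 followed the list in the other library. From the group with the fewest to the group with the most immediate early UMIs it stood at 293.8, 429.8, 509.9 and 539.2 CPM in FGR cells, and at 101.7, 113.0, 96.0 and 99.7 CPM in Control cells. The ratios were 2.89, 3.80, 5.31 and 5.41. Nrarp was lower in FGR cells in each group, at ratios of 0.697, 0.507, 0.423 and 0.553, with no steady order. Rbpj stayed between 1.03 and 1.12, Notch2 between 1.01 and 1.12, Notch1 between 0.906 and 0.974 and Maml2 between 0.917 and 1.04.

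**Figure D5:**
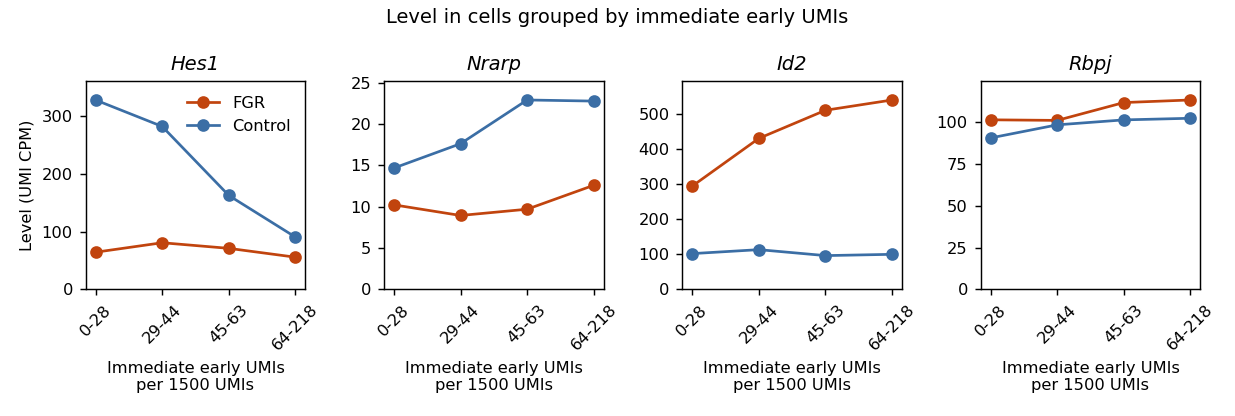
Levels in UMI CPM (axes from 0) of Hes1, Nrarp, Id2 and Rbpj in cells grouped by their number of immediate early UMIs per 1500 UMIs, for FGR and Control. Hes1 in Control cells goes from 327.4 CPM in the group with the fewest to 90.3 CPM in the group with the most such UMIs, Id2 in FGR cells goes from 293.8 to 539.2 CPM, and Rbpj stays nearly level in both.

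When the libraries were matched cell by cell on this sum (7149 cells each), the Hes1 ratio was 0.319 (0.305 to 0.333), against 0.279 over all cells. In the same matched cells the Id2 ratio was 4.37 (4.22 to 4.53), against 4.50 over all cells. Cell groups by depth gave Hes1 ratios between 0.249 and 0.329 and Id2 ratios between 3.75 and 5.11. The part of dissociation or of any other stimulus in the 2 differences was not tested beyond these values.

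Levels over clusters were compared over 17 pools, each the cells of 1 library in 1 cluster, after each library's mean was taken off. The comparison covered 3351 genes of at least 50 CPM in at least 1 library, leaving out predicted, mitochondrial and ribosomal protein genes. From these, the genes most like Hes1 were taken. They were Mib1 (Pearson r = 0.836), an E3 ligase that makes Notch ligands active, Snx17 (0.832), Bod1l (0.822), Ncor1 (0.816), a co-repressor of the nuclear lists, and Bank1 (0.785). For Id2 they were Osm (0.935), which encodes the cytokine oncostatin M, Ubxn4 (0.931), Impact (0.928), C3ar1 (0.921), the receptor of complement C3a, and Otud1 (0.905). With finer clusters, giving 21 pools, Bod1l remained among the 5 for Hes1 and Osm among the 5 for Id2. Hes1 and Id2 themselves had r = 0.328. The pools included unnamed clusters, among them cluster 8. Its FGR pool had the lowest level of both genes over the 17 pools, at 12.3 CPM for Hes1 (4 UMIs) and 30.7 CPM for Id2 (10 UMIs). How far that pool alone sets these r values was not tested. Pools of a library share its chemistry and depth, so these values are descriptions.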

How the data were processed

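The deposited values were raw UMI counts per gene and barcode, in unfiltered matrices of 1935841 (FGR) and 1961707 (Control) barcodes. Per the file headers they came from Cell Ranger 4, whereas the submitters' processing notes give Cell Ranger 3.0, with Seurat 5.0 and mm10. The annotation and strand setting are not stated there. Counts of 38 symbols with more than 1 ID were summed. Cells held 45441515 UMIs (89.4%) in FGR and 53560293 UMIs (90.8%) in Control.

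The members and lists were chosen with earlier results of these data known. Levels are summed UMIs scaled to 1000000. Intervals (95%) are exact Poisson for levels, exact conditional for ratios and Clopper-Pearson for shares. With 1 library per group there was no test. Genes named are the 8 members, the 4 or fewer measured genes per list whose log2 ratio was farthest from 0, and the 5 most like Hes1 and Id2 by Pearson r of log2(CPM + 10). Maml3, the ligands, Notch3, Id4, the unmeasured Hes and Hey genes, Bmp2, Bmp6, Egr1, Ier2, Ier3, Ier5 and genes leading clusters were added after their values were seen. A gene that the rule would name is not reported here. Clustering used 2000 variable genes, 30 principal components, 15 neighbours and leidenalg 0.10.2 at resolution 0.5, with no batch correction. Microglia-like clusters had 3 or more microglial markers, each found in 20% or more of the cells, and no other type leading. The rest hold 3.05% of FGR cells and 7.72% of Control cells, and rebuilt names may differ from the study's own. Doublets were kept, since no caller was relied on, and an alternative dropped the 6% of cells scoring highest by Scrublet's method. Coordinates are from GENCODE M21 (GRCm38). Python 3.11.15, numpy 2.4.6, scipy 1.17.1 and pandas 2.3.3 were used. On Poisson counts simulated for this comparison (8328 genes, 200 changed), 100% of 2-fold and 0% of 1.2-fold changes were called. The true ratio lay in 95.1% of intervals. The intervals assume the same Poisson model, and the simulation held no further variation between cells or libraries. These shares therefore check the calculation only.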

Additional observations from a re-analysis of the deposited data

Results flagged for a closer look

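Barcodes of 10 to 100 UMIs, which hold mostly free RNA and debris and enter none of the comparisons, carried the same contrast as the cells. In them Hes1 stood at 58.8 CPM (49.9 to 68.9) in FGR and 207.7 CPM (191.5 to 225.0) in Control, which is a ratio of 0.283 (0.236 to 0.339). Id2 stood at 468.7 CPM (442.8 to 495.7) in FGR and 94.4 CPM (83.6 to 106.3) in Control, which is a ratio of 4.96 (4.35 to 5.68). These levels lay above the limit that a count of 0 allows, 1.15 CPM in the FGR library and 1.03 CPM in the Control library. By its globin content, free RNA made up 2.47% of the UMIs of FGR cells and 3.31% of those of Control cells.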

How the results depend on the processing

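Over 14 alternatives, 3 of them chosen after seeing the data, the Hes1 ratio lay between 0.273 and 0.319 and the Id2 ratio between 4.32 and 4.73. The Hes1 ratio was 0.319 without cells holding 2 or more UMIs of other types' markers (3126 FGR cells and 4596 Control cells kept), 0.319 matched on immediate early UMIs, 0.319 matched without Dusp1 and 0.293 with median-of-ratios size factors. The Id2 ratio was 4.32 thinned, 4.64 without cells holding other types' markers and 4.73 with size factors. Nrarp stayed between 0.514 and 0.634, Notch1 between 0.915 and 1.01, Notch2 between 1.04 and 1.11, Rbpj between 1.08 and 1.17 and Maml2 between 0.994 and 1.09. Id1 (0.509 to 1.79) and Id3 (0.464 to 2.003) crossed 1, below it in 3 of 14 alternatives, those that leave out the endothelial-marker cluster or cells with other types' markers. Called higher and lower were 87 and 41 genes at a minimum of 50 CPM, 709 and 237 with no minimum, and 89 and 24 at 2-fold; at 50 CPM 1 listed pathway gene was called lower, since Nrarp is then not measured. Shares as counted were 19.8% of FGR cells and 39.7% of Control cells for Hes1, and 57.7% of FGR cells and 25.5% of Control cells for Id2. Where a value moved, the cause was not tested unless named here. No paired analysis was possible because each group is 1 library. Depth limits Id1, Id3 and values in clusters of under 50 cells.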

Other observations

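In the small clusters left out above, Hes1 and Id2 rested on few cells. In the mitotic cluster (24 FGR cells and 26 Control cells) Id2 stood at 349.9 CPM in FGR cells and 136.8 CPM in Control cells (ratio 2.56, 1.61 to 4.17), and Hes1 at 43.1 CPM in FGR cells and 96.3 CPM in Control cells (0.447, 0.169 to 1.07). In the endothelial-marker cluster Notch1 stood at 146.5 CPM in 41 FGR cells and 251.9 CPM in 11 Control cells, and Hes1 at 309.6 CPM in FGR cells and 544.2 CPM in Control cells. In the cluster led by Mobp and Mbp (35 FGR cells and 413 Control cells) Hes1 stood at 50.4 CPM in FGR cells and 278.6 CPM in Control cells and Id2 at 397.4 CPM in FGR cells and 77.8 CPM in Control cells. Of the BMP ligand genes, Bmp6 had 39 UMIs in FGR cells and 0 UMIs in Control cells, and Bmp2 had 34 UMIs in FGR cells and 5 UMIs in Control cells. Both were below 1 CPM in either library, and whether these UMIs came from microglia or from other cell types was not tested. In the cluster led by Clu, Slc1a2 and Aldoc, Id1 had 47 UMIs in 59 FGR cells and 12 UMIs in 340 Control cells.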
